A study of Mus musculus with 8 samples.

Results

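The capsaicin receptor and 2 sensory neuropeptides were followed through colon RNA of mice on a high salt or a control diet. They are 3 of the 68 target genes of a NanoString panel, taken by name as the rows trpv1, SUBP (substance P) and CGRP. The NanoString nCounter counts fluorescent barcodes hybridized to each RNA, with no amplification. The mice were specific pathogen-free C57BL/6 males and females of 7 to 10 weeks. The high salt group received the control diet with 4% NaCl added for 1 week, and the control group received the control diet. RNA of whole colon from 10 mice per diet was combined into 4 pools per diet: male mice 1 to 3, male mice 4 and 5, female mice 1 to 3 and female mice 4 and 5. Each pool is 1 measurement of 2 or 3 animals, and the variation among single mice was not measured.

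Trpv1 is a cation channel opened by capsaicin, heat and protons, and it is best known from peptidergic nociceptors. In such neurons substance P, cut from the precursor that Tac1 encodes, and calcitonin gene-related peptide (CGRP) are stored together and released when the channel opens, which gives vasodilation and plasma leakage. In the gut the cell bodies of these extrinsic afferents lie outside the wall, in dorsal root and nodose ganglia, while substance P is also made by excitatory motor neurons of the myenteric plexus. In whole-colon RNA, fewer cells of a type and less RNA per cell cannot be told apart. Muc2 encodes the main secreted mucin of goblet cells and was the epithelial row of the comparison. In the RefSeq table for GRCm38.p6 the panel's name trpv1 matched the symbol Trpv1 on chromosome 11, CGRP matched a synonym of Calca on chromosome 7, and SUBP matched no entry. Calca also encodes calcitonin, and which transcript the CGRP probe reads was not given in the sources used here.

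The deposited values are normalized counts, which had been scaled so that the reference genes Gapdh, Gusb and Pgk1 have the same geometric mean in each pool. Low values stand at a floor that equals the geometric mean of the negative control probes of the pool, between 1.59 and 6.51. The barcode counts behind values above the floor could be recovered, and their totals lay between 26893 and 169300 in high salt pools and between 13574 and 74270 in control pools. Among markers of the tissue, the epithelial genes Muc2, I-FABP, Tff3, Cdh1 and Cldn2 lay above the floor in 8 of 8 pools, and 4 of 7 neuronal and 2 of 3 glial markers did so. PGP9.5, a general neuronal marker, lay above the floor in 4 pools, and Defcr1, a Paneth cell defensin, in 1. Lyz1, listed with Defcr1 as a Paneth cell marker, lay above it in 8 pools, at 205.6 to 589.8.

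SUBP was the most abundant of the 3 rows, trpv1 lay between, and CGRP was at or near background. This order held in 8 of 8 pools, although probes of different genes can differ in efficiency, so the order is one of normalized counts and not of transcripts. On the high salt diet SUBP was 229.2 in the pool of male mice 1 to 3, 341.4 in male mice 4 and 5, 782.0 in female mice 1 to 3 and 900.3 in female mice 4 and 5. On the control diet it was 382.5, 241.8, 404.7 and 257.7 in the corresponding pools. Both female high salt pools stood above the 6 other pools, while the male high salt pools lay within or just below the control range. These values rest on 252 to 775 counts in high salt pools and 105 to 266 in control pools, so counting error is small beside the spread.

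Trpv1 was lower than SUBP in each pool, at 3.10% to 11.9% of SUBP in high salt pools and 1.91% to 12.4% in control pools. On the high salt diet trpv1 was 16.8 in male mice 1 to 3, 40.5 in male mice 4 and 5, 31.0 in female mice 1 to 3 and 27.9 in female mice 4 and 5. On the control diet it was 47.5, 11.5, 7.71 and 7.52 in the corresponding pools. The highest value of all thus came from a control pool, and the other 3 control pools lay below each high salt pool. The counts behind these values were 41, 75, 10 and 24 on the high salt diet and 33, 11, 2 and 7 on the control diet. They exceeded the highest single negative control probe in 6 of 8 pools. In the female control pools trpv1 had 2 and 7 counts, where the highest negative control had 4 and 10, so trpv1 was not distinguishable from background there. The 95% Poisson intervals, which cover counting error only, did not overlap between both male pools on high salt: the upper bound was 22.8 normalized counts for male mice 1 to 3 and the lower bound 31.9 for male mice 4 and 5.

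CGRP lay above the floor in 1 of 4 high salt pools and 0 of 4 control pools. The measured value was 9.31 in female mice 1 to 3 on high salt, from 3 counts (95% Poisson interval 0.619 to 8.77 counts), where the highest negative control probe had 2. The other high salt pools are listed at their floors of 6.51, 5.11 and 2.09, which can hide up to 15, 9 and 2 counts. The control pools are listed at 2.40, 2.74, 1.59 and 3.66, which can hide up to 2, 2, 1 and 3 counts. CGRP was therefore not detectable at this depth in 7 of 8 pools, and differences among those values are differences between floors.

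**Figure D1:**
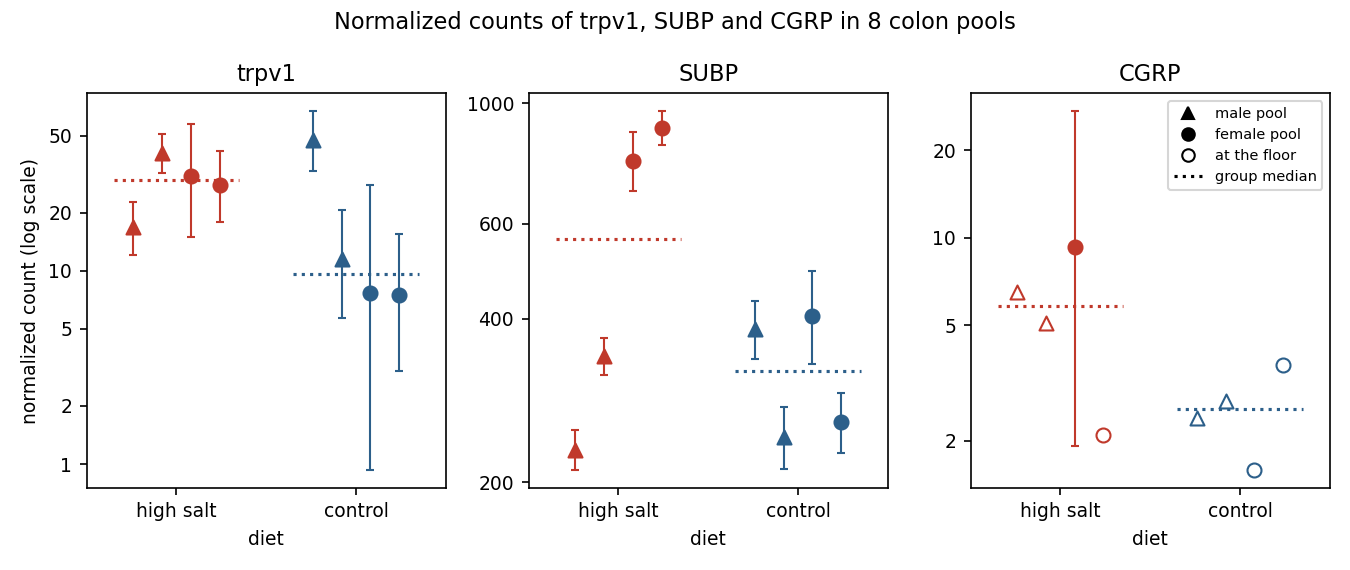
Normalized counts (log axis) of trpv1, SUBP and CGRP in the 4 high salt pools and the 4 control pools, with triangles for male and circles for female pools, open symbols for values at the floor, bars for 95% Poisson intervals and dotted lines for group medians. SUBP is highest in the female high salt pools (782.0 and 900.3), trpv1 is highest in a male control pool (47.5), and CGRP is above the floor in a single pool (9.31).

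Across the 8 pools trpv1 varied with Muc2 and not detectably with either peptide. On the log2 scale Pearson's r of trpv1 and Muc2 was 0.98 and Spearman's rho 0.98 (exact permutation p = 4.96e-05 and 0.000397, adjusted over 6 relations 0.000298 and 0.00238). The r of trpv1 was 0.45 with SUBP (exact permutation p = 0.265, adjusted 0.563; rho 0.31, p = 0.462, adjusted 0.619) and 0.29 with CGRP (exact permutation p = 0.469, adjusted 0.563; rho 0.21, p = 0.619, adjusted 0.619), where CGRP is nearly all floors. Whether the correlations themselves differ from one another was not tested. The rows compared, Muc2 among them, were chosen with earlier results of these data known. The adjustment over 6 relations does not cover that choice.

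The relation with Muc2 did not rest on the difference between diets or on extreme pools. With each diet centred on its own mean, r was 0.97 (exact permutation p = 0.00347 over pairings within diets, adjusted 0.0208). Without the 2 pools farthest from the median of Muc2, the female control pools, it was 0.98 in the remaining 6 (exact permutation p = 0.00139, adjusted 0.00833), and these are the pools where trpv1 did not exceed the highest negative control. With each pool left out in turn it lay between 0.97 and 0.99. For SUBP the corresponding values were 0.28 with diets centred (exact permutation p = 0.403), 0.35 without its 2 farthest pools, the female high salt pools (exact permutation p = 0.451), and 0.35 to 0.55 with each pool left out.

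The pools show the relation directly. Muc2 was 21934, 53516, 36237 and 26688 in the high salt pools, in the same order of pools as above, and 62763, 10865, 3373 and 4074 in the corresponding control pools. The high salt pools have the same order in trpv1 as in Muc2, and in the control pools the order differs only between both female pools, where trpv1 was 7.71 and 7.52. As a share of Muc2, trpv1 was 0.0765%, 0.0757%, 0.0856% and 0.104% in the high salt pools and 0.0756%, 0.105%, 0.229% and 0.185% in the control pools. The shares were nearly equal in the 2 pools of highest Muc2 (0.0756% and 0.0757%) and in male mice 1 to 3 on high salt (0.0765%), where Muc2 was 21934. The 2 highest shares belong to the female control pools, where trpv1 was not distinguishable from background.

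On the deposited scale the values lay close to a straight line. Least squares gave an intercept of 5.09 normalized counts of trpv1, with r = 0.99 (a scale chosen after seeing the data; exact permutation p = 4.96e-05, adjusted 0.000298). The distance from the line was 1.05 in the median and 4.59 at most, and the line passed through the Poisson interval of trpv1 in 8 of 8 pools, as a description of the points it was fitted to. The intercept is of the size of the floors. Whether the trpv1 row holds any signal from Muc2, the row with the highest mean of the panel, was not tested. Summed counts of the negative control probes were 56, 46, 10 and 16 in the high salt pools and 20, 21, 11 and 29 in the control pools. The 2 pools with the highest Muc2 had 20 (male mice 1 to 3 on control diet) and 46 (male mice 4 and 5 on high salt). These counts are not scaled for depth.

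**Figure D2:**
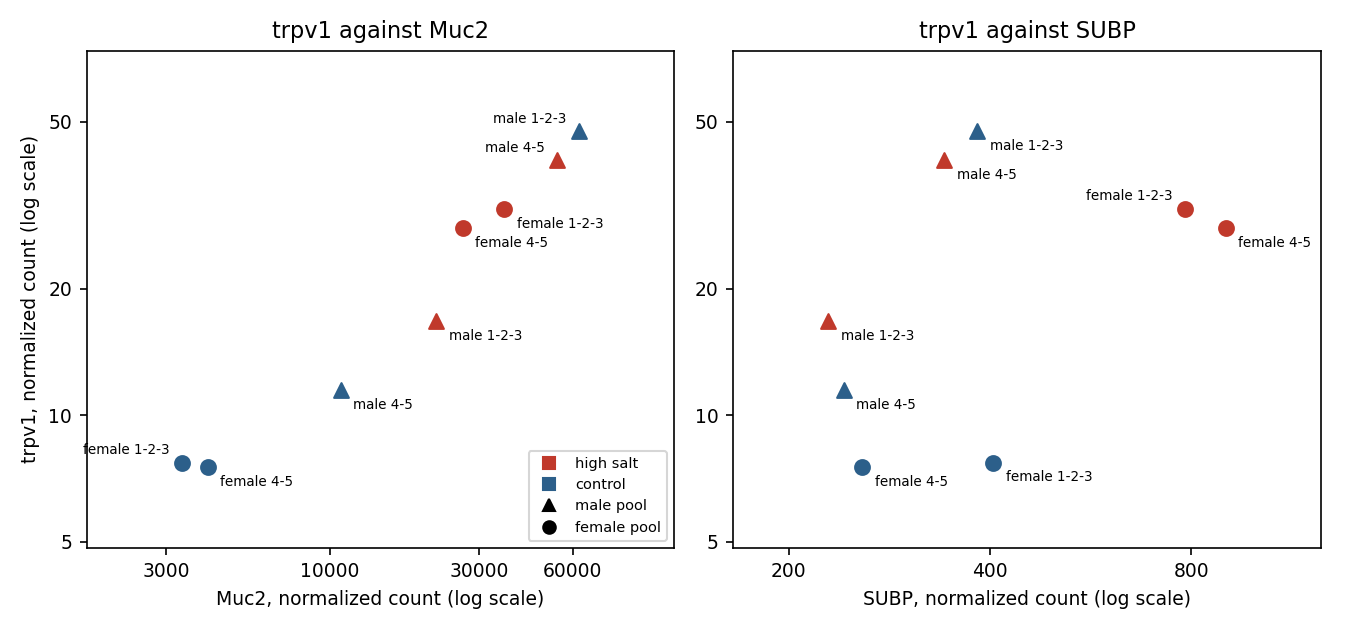
Normalized counts of trpv1 against those of Muc2 (left) and SUBP (right), both on log axes, with a point for each of the 8 pools labelled by sex and mouse numbers, red for high salt and blue for control. The points lie along a line for Muc2 (r = 0.98) and are scattered for SUBP (r = 0.45).

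Among the other target genes above the floor in all pools, those most like trpv1 were Muc2, I-FABP and Tlr2. Muc2 ranked first of 46 by Pearson's r, I-FABP, which carries fatty acids in enterocytes, followed with 0.91 and Tlr2, a receptor for bacterial lipoproteins, with 0.91. In turn trpv1 ranked first of 46 among the genes most like Muc2. SUBP ranked 14 of 46 for trpv1. The likeness did not extend to all epithelial genes: over the 5 of the epithelial list, r with trpv1 was 0.98 for Muc2, 0.91 for I-FABP, 0.87 for the antibacterial lectin Reg3g, -0.31 for the goblet cell peptide Tff3 and -0.47 for the adhesion protein Cdh1. Cldn2, a claudin that stands among the epithelial markers above but not in this list, had -0.64 and ranked 45 of 46. Among enteric neuron genes above the floor in all pools it was 0.40 for CALRET, 0.36 for NOS, 0.023 for CHAT and -0.59 for VIP, and over the 46 genes the median was 0.11. These values share 8 pools and the same scaling, and describe likeness only.

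SUBP had other neighbours. The genes most like it were NOS, GDNF and Tlr5, with r of 0.91, 0.83 and 0.83. NOS is the nitric oxide synthase row of the panel (its isoform is not named), GDNF is a trophic factor of enteric neurons, and Tlr5 is the receptor for flagellin. NOS was 99.5, 137.2, 288.6 and 259.1 in the high salt pools, in the order of pools used above, and 192.7, 85.5, 231.3 and 119.2 in the control pools, so it too was highest in the female high salt pools. Over the 4 enteric glia genes, GFAP, S100BETA (at the floor in 1 pool), SOX10 and GDNF, r with SUBP lay between 0.75 and 0.85 (median 0.83), against a median of 0.51 over 46 genes, while their r with trpv1 lay between -0.024 and 0.46. Of the 7 enteric neuron genes, the 4 above the floor in all pools had r with SUBP of 0.91 for NOS, 0.73 for CHAT, 0.24 for VIP and -0.031 for CALRET, on both sides of that median. The other 3, PGP9.5, NPY and CALB, were at the floor in 4 or more pools. The summed level of the glial markers GFAP, S100BETA and SOX10 was 39.7 to 180.0 in high salt pools and 43.8 to 146.5 in control pools. The glial part in the SUBP pattern was not tested. SUBP and Muc2 had r = 0.33 (exact permutation p = 0.428, adjusted 0.563; rho 0.24, p = 0.582, adjusted 0.619).

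CGRP followed none of the rows above the floor in all pools closely. Its highest r over these 47 genes was 0.47, with Nod2, a sensor of bacterial peptidoglycan. Tollip, an adaptor of Toll-like receptor signalling, followed with 0.41 and Muc2 with 0.40, and 7 of the 8 values of CGRP are floors. Rows with floors were left out of this ranking. Defcr1 holds the same floors as CGRP in those 7 pools. It was 27.9 in female mice 1 to 3 on high salt, where CGRP was 9.31. Such likeness is one of shared floors. With SUBP it had r = 0.0051 (exact permutation p = 0.990, adjusted 0.990; rho -0.36, p = 0.389, adjusted 0.619) and with Muc2 0.40 (exact permutation p = 0.321, adjusted 0.563; rho 0.31, p = 0.462, adjusted 0.619).

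**Figure D3:**
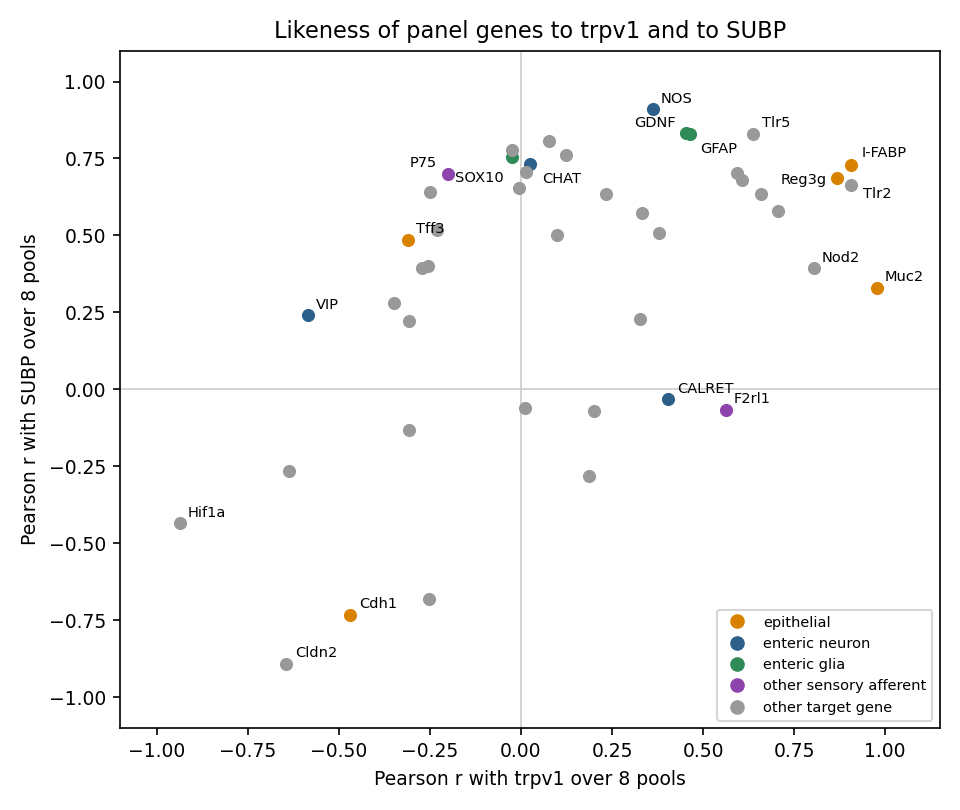
Pearson's r with trpv1 (horizontal) and with SUBP (vertical) over 8 pools for the 45 other target genes above the floor in all pools, coloured by gene list. Muc2 lies at 0.98 with trpv1 and 0.33 with SUBP, and NOS at 0.36 with trpv1 and 0.91 with SUBP.

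Between diets, none of the 3 rows passed the test. Their groups overlapped, as they did for all but 1.47% (1 gene) of the panel. Limma on log2 of the value plus 1, with Benjamini-Hochberg adjustment over 68 genes, called 0% of the panel at an adjusted p under 0.05 and 4.41% (3 genes) at an unadjusted p under 0.05. The methods' test for unpaired groups and limma-voom on recovered counts each called 0 genes after adjustment and 1 before it. Trpv1 averaged 29.1 ± 9.78 on the high salt diet and 18.5 ± 19.4 on the control diet (SD, n = 4 pools each), a log2 difference of 0.98 (standard error 0.564, 95% interval -0.27 to 2.23, limma adjusted p = 0.628, two-sided exact permutation p = 0.200, unadjusted). The 4 against 4 pools cannot give an exact p below 0.0286. This result turned on 1 pool: without the control pool of male mice 1 to 3, at 47.5, the log2 difference was 1.56 (limma adjusted p = 0.0451). Of 68 genes, 5 were then past the threshold, trpv1, I-FABP, Muc2, Reg3g and Tlr2, all higher on the high salt diet. Over the 8 pools the r with trpv1 was 0.98 for Muc2, 0.91 for I-FABP, 0.91 for Tlr2 and 0.87 for Reg3g. These calls are therefore not separate observations. Muc2 itself was 34594 ± 13946 on the high salt diet and 20268 ± 28530 on the control diet (SD, n = 4 pools each), a log2 difference of 1.73 (standard error 0.816, limma adjusted p = 0.628).

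SUBP averaged 563.2 ± 327.8 on the high salt diet and 321.7 ± 83.8 on the control diet (SD, n = 4 pools each). Its log2 difference was 0.63 (standard error 0.476, 95% interval -0.43 to 1.68, limma adjusted p = 0.806, exact permutation p = 0.343), with the high salt pools spread on both sides of the control pools. The difference was 0.33 when female mice 4 and 5 on high salt were left out, and 0.99 when male mice 1 to 3 on high salt were. CGRP, with floors taken as values, had a log2 difference of 0.81 (standard error 0.414, 95% interval -0.11 to 1.73, limma adjusted p = 0.628, exact permutation p = 0.114), which was 0.57 without its measured pool, where only floors are left, and 0.11 with the highest floor of 6.51 set in all pools.

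The diet differences of the rows were not shown to be unequal. Within pools, the log2 ratio of trpv1 to SUBP averaged -4.08 on the high salt diet and -4.43 on the control diet, a difference of 0.36 (exact permutation p = 0.657, adjusted over 4 ratios 0.886). The ratio of trpv1 to Muc2 averaged -10.15 on the high salt diet and -9.40 on the control diet, a difference of -0.75 (exact permutation p = 0.171, adjusted 0.686). With single pools left out this difference lay between -0.48 (without female mice 1 to 3 on control diet) and -1.06 (without male mice 1 to 3 on control diet, exact permutation p = 0.0286, adjusted 0.114), and the 2 highest control ratios are those of the female pools with trpv1 at background. The ratios of trpv1 to CGRP and of SUBP to CGRP differed by 0.17 and -0.19 (exact permutation p = 0.886 and adjusted 0.886 for each), and both rest on the floors of CGRP.

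**Figure D4:**
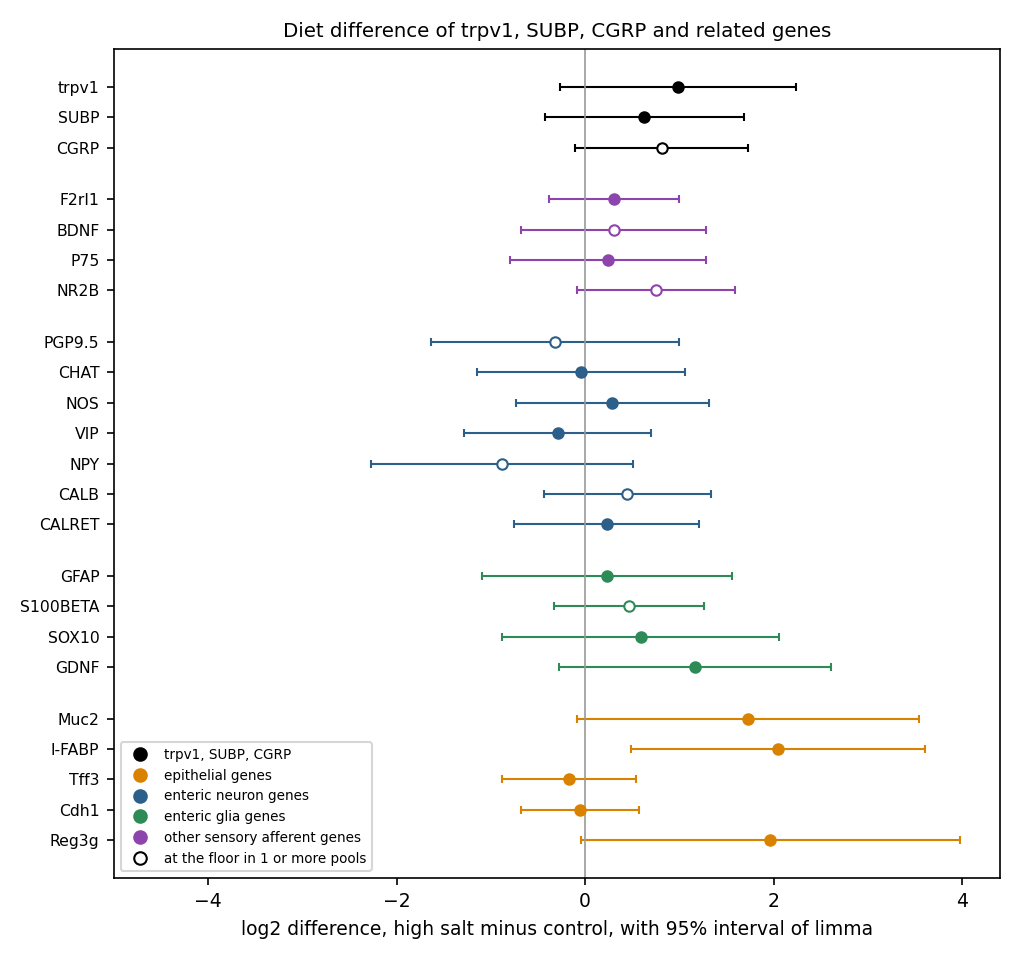
Log2 difference between high salt and control pools (horizontal, with 95% intervals of limma) for trpv1, SUBP and CGRP and for the genes of 4 lists (rows), with open symbols for genes at the floor in at least 1 pool. The intervals of trpv1, SUBP and CGRP include 0, and of the genes shown only that of I-FABP (log2 difference 2.04) does not.

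The diet differences of trpv1 and SUBP were larger in value in female than in male pools, but the difference between sexes did not pass the test. In females the log2 difference was 1.82 for trpv1 and 1.37 for SUBP, and in males 0.14 and -0.12. The female value of trpv1 is set against the control pools in which trpv1 was not above background, so its size is uncertain. The interaction of diet and sex, female minus male, was 1.67 for trpv1 (standard error 0.980, limma adjusted p = 0.709) and 1.49 for SUBP (standard error 0.674, limma adjusted p = 0.481), and with single pools left out it ran from 0.70 (without male mice 1 to 3 on control diet) to 2.65 (without male mice 4 and 5 on control diet, limma adjusted p = 0.137) for trpv1. For CGRP it was -0.23 (standard error 0.880, limma adjusted p = 0.976). This test called 0% of the 68 genes at an adjusted p under 0.05 and 8.82% at an unadjusted p under 0.05, with trpv1 (unadjusted p = 0.125) and SUBP (unadjusted p = 0.0566) not among them. Recovered totals were lower in female than in male pools on both diets. They were 26893 and 65377 in female and 152885 and 169300 in male pools on the high salt diet. On the control diet they were 13574 and 41693 in female and 74270 and 45545 in male pools. These totals include Muc2, with 43645 of the 74270 counts and 99080 of the 169300. In the reference-gene scaling, 1 count stood for 3.10 and 1.16 normalized counts in female and 0.409 and 0.540 in male pools on high salt. On the control diet it stood for 3.85 and 1.07 in female and 1.44 and 1.04 in male pools. There the sexes overlapped in depth. Over the 8 pools log2 SUBP had r of -0.68 with the log2 floor and -0.68 with the log2 summed negative control counts, and trpv1 0.032 and 0.073, as descriptions. With the negative control counts scaled as the genes were, r was -0.065 for SUBP and -0.37 for trpv1. With the log2 of counts per normalized count, a measure of depth, it was -0.53 for SUBP and 0.18 for trpv1. The part of depth and background in these results was not tested. With diet as a covariate, the female minus male difference over both diets was -0.67 for trpv1, 0.83 for SUBP and -0.15 for CGRP (limma adjusted p = 0.523, 0.298 and 0.877), in a comparison that called 0% of genes after adjustment and 13.2% before it. The sex difference of trpv1 was -0.12 without male mice 1 to 3 on control diet and -1.09 without male mice 1 to 3 on high salt.

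Other genes of sensory and enteric nerves did not pass the diet test either. The 4 other genes tied to sensory afferents were F2rl1 (a protease receptor found on nociceptors), BDNF, P75 (a neurotrophin receptor) and NR2B (an NMDA receptor subunit). Of these, 0 passed in either direction and 4 had a positive log2 difference (median 0.30), against 44 of all 68 genes (median 0.18). NR2B had the highest, 0.75 (standard error 0.376, limma adjusted p = 0.628), and P75 the lowest, 0.24 (standard error 0.467, limma adjusted p = 0.912). BDNF and NR2B were each at the floor in 4 pools. In the male high salt pools both are listed at the floors of 6.51 and 5.11, which are higher than any control floor. Part of their positive difference is thus a difference between floors. Of 7 enteric neuron genes, 0 passed and 3 had a positive difference (median -0.045), from -0.88 for NPY, neuropeptide Y (standard error 0.625), to 0.45 for CALB, a calcium-binding protein listed above the floor in 1 pool (standard error 0.397). Of 4 enteric glia genes, 0 passed and 4 had a positive difference (median 0.53), from 0.23 for GFAP, the glial filament protein (standard error 0.596), to 1.17 for GDNF (standard error 0.649). Of 5 epithelial genes, 0 passed and 3 had a positive difference, from -0.17 for Tff3 (standard error 0.321) to 2.04 for I-FABP (standard error 0.702, limma adjusted p = 0.514). The epithelial marker Cldn2, outside this list, had a log2 difference of -0.97 (standard error 0.642, limma adjusted p = 0.784).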

How the data were processed

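Total RNA of whole colon was counted on a NanoString nCounter with a custom panel of 68 target genes, 3 reference genes and 12 control probes, in 8 pools mapped to diet, sex and mice from the labels. The deposited values are a signal, normalized counts that the authors made with nSolver 4.0. Its settings were not stated, and the scaling and floor described above were read off the values. Over the 8 pools, 487 of 487 gene values above the floor were whole multiples of a fixed step within 0.006 (100%), and 81 values were at the floor. This scaling cannot show a change common to the reference genes.

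Diets were compared with limma 3.58.1 in R 4.3.3 on log2(value + 1), which understates the change of low genes, with diet as the only term. Single values, ratios and correlations had two-sided exact permutation tests, over 70 assignments or 40320 pairings of pools (Python 3.11.15, scipy 1.17.1). P-values measure the spread between pools. The limma step was tested on simulated data. Genes named are trpv1, SUBP, CGRP, Muc2, the 3 most like each member and the highest and lowest of each list; Reg3g, Cdh1 and others outside this rule were named after their values were seen. Members, lists and tests were chosen with earlier results of these data known. Planned edgeR fits were not run, since floored values are not counts; limma-voom took their place.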

Additional observations from a re-analysis of the deposited data

Results flagged for a closer look

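Single pools far from the others of their diet were looked for by Dixon's test with the 17 named genes, in 34 sets of 4 pools, on the deposited and on the log2 scale, where chance gives about 1.7 per scale. On the deposited scale the control pool of male mice 1 to 3 stood above the other control pools in trpv1 (47.5 against 7.52 to 11.5), in Muc2 (62763 against 3373 to 10865), in I-FABP (2873 against 315.7 to 574.3) and in Tlr2 (261.7 against 32.3 to 61.7). On the log2 scale the high salt pool of male mice 1 to 3 stood below the other high salt pools in Tlr2 (101.1 against 227.7 to 266.9). The 4 genes high in that control pool are correlated, so they are not separate observations, and SUBP, at 382.5 there against 241.8 to 404.7 in the other control pools, did not stand apart.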

How the results depend on the processing

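Of 327 values under alternative settings for 20 results, 300 kept their direction and side of the threshold. Another 4 newly passed it and 23 changed direction. None lost a call, but only the correlation of trpv1 and Muc2 had passed under the main settings. The other results had no call to lose. The correlation of trpv1 and Muc2 passed by Pearson's r under all 17 alternatives run (exact permutation, adjusted p 0.000149 to 0.0208), while Spearman's rho missed the threshold under 2 of them: with pools centred on the median (0.86, exact permutation adjusted p = 0.0643) and without both pools of male mice 1 to 3 (0.94, exact permutation adjusted p = 0.100). Without both pools of male mice 1 to 3, a choice made after seeing the data, the diet difference of trpv1 was 1.79 (limma adjusted p = 0.0168). In that setting 6 of 68 genes passed. Leaving out each pool gave 0.73 to 1.56 for trpv1, and 0 to 5 of 68 genes. Changes of direction lay in CGRP, 7 of whose values are floors, and in ratios near 0. The sex difference of CGRP was 0.0020 with pools centred on the median and 0.11 with a common floor (-0.48 to 0.22 with each pool left out), and its interaction 0.23 with a common floor (-1.09 to 0.64). The correlation of trpv1 and CGRP was -0.059 with diets centred. That of SUBP and CGRP was -0.0081 with a pseudocount of 0.5, -0.037 rescaled to Gapdh, -0.40 with diets centred and -0.45 without the 2 farthest pools (-0.58 to 0.33 with each pool left out). The diet difference of trpv1 minus SUBP was -0.0019 with a pseudocount of 10 (-0.014 to 0.84 with each pool left out), that of trpv1 minus CGRP was -0.22 to 0.76 on leaving out each pool, and that of SUBP minus CGRP was 0.31 with a pseudocount of 10, 0.51 with a common floor and 0.38 without both pools of male mice 1 to 3 (-0.82 to 0.27 with each pool left out). The cause was not tested. Same-numbered pools hold different mice, and their deviations had r of -0.52, 0.030, 0.38 and 0.0093, with 2 of 8 pools most like their own number, so the numbers do not pair the pools; with the replicate block the log2 difference was 0.98 for trpv1, 0.63 for SUBP and 0.81 for CGRP (limma adjusted p = 0.765 each) and 0 genes passed. The edgeR alternatives were not run.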

Other observations

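Hif1a, which encodes a subunit of the oxygen-regulated factor HIF-1, had an r of -0.94 with trpv1, the lowest of 46 genes, and was picked out after its values were seen. P75 was higher in female than in male pools by 1.20 on the log2 scale (standard error 0.243, limma adjusted p = 0.0711), which did not pass, and its r was 0.70 with SUBP and -0.20 with trpv1 over the 8 pools.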
